A study of Mus musculus with 18 samples.

Results

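The genes described here encode the proteins of the cytosolic ribosome. They were chosen by symbol: names of the form Rpl, Rps or Rplp followed by a number, together with Rpsa, without the rows marked as pseudogenes by "-ps" and without the S6 kinase genes. The rule found 85 of the 24054 genes in the tables, 52 of the large and 33 of the small subunit. Of these, 8 are called paralogs here, that is, further genes named after a usual ribosomal protein gene: Rpl3l, Rpl7l1, Rpl10l, Rpl22l1, Rpl36al, Rpl39l, Rps27l and Rps4l. The remaining 77 are called the core genes below. All 85 were placed on the GRCm38 genome with GENCODE M21, which spreads them over 19 chromosomes and annotates Rps4l as a transcribed processed pseudogene.

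RNA-Seq was made from hypothalamus, pituitary and thyroid of untreated C57BL/Ntac males aged 3 months. WT mice 1, 2 and 43 were compared with K146Q mice 60, 62 and 83, which are homozygous for a knock-in that changes a lysine of thyroid hormone receptor β (THRB) to glutamine and removes a sumoylation site. The change lies in all THRB isoforms and in every cell of the body, so the 3 tissues carry it together and their effects on each other cannot be told apart. The allele was made by gene targeting and backcrossed. Since the knock-in changes a codon, the level of Thrb is no check of the labels. The comparison asks how the hypothalamus, pituitary and thyroid of mice with this receptor differ from those of WT mice. In the study's methods the RNA-Seq section names hypothalamus and pituitary as collected tissues, and dissection of the thyroid appears under other assays.

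Each ribosome holds the large subunit, where peptide bonds form, and the small subunit, where the message is decoded, and their proteins are needed in nearly equal numbers. The mRNAs of these proteins, and of some translation factors, begin with a C followed by a run of pyrimidines, the 5′ terminal oligopyrimidine (TOP) tract. Through this tract the kinase mTORC1 and the binding protein Larp1 set how well the mRNAs are translated and kept. In glands, growth under a trophic hormone goes along with the making of more ribosomes.

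The starts of a few of these genes are shown because the TOP tract is the sequence feature described for their mRNAs. Windows of 20 bases before and 20 bases from the annotated start were read from RefSeq on GRCm38.p6, which gave starts for 64 of the 85 genes. Capitals mark the unbroken run of C and T that begins at the start itself.
Rps6: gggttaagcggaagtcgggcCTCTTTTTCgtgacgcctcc
Rps18: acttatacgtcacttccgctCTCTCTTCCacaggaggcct
Rpl28: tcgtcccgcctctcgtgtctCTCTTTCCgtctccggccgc
Rpl35: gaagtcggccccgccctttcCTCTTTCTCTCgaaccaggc
Rpl31: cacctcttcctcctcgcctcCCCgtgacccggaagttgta
Rps28: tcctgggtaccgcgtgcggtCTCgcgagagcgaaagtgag
Rpl36al: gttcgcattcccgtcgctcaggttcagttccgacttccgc
Rpl22l1: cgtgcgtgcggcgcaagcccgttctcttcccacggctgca
These windows, which run from the promoter into the first exon, lie at chr4:86857348-86857387 (minus strand) for Rps6, chr17:33955646-33955685 (minus strand) for Rps18, chr7:4792945-4792984 (plus strand) for Rpl28, chr2:39005112-39005151 (minus strand) for Rpl35, chr1:39367831-39367870 (plus strand) for Rpl31, chr17:33824543-33824582 (minus strand) for Rps28, chr12:69184048-69184087 (minus strand) for Rpl36al and chr3:28805488-28805527 (plus strand) for Rpl22l1. The first 4 begin with C and at least 4 further pyrimidines, Rpl31 and Rps28 begin with 3, and the annotated starts of the paralogs Rpl36al and Rpl22l1 are not pyrimidines. A start of the first kind was found in 13 of the 64 genes (20.3%), against 3.01% of all genes with an annotated start, counted on the sense strand. All 13 were core genes, but so were 57 of the 64. Annotated starts can lie some bases from the used one, so a gene without the tract in this window may still have it.

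The 300-base windows, from 250 bases before the start to 50 from it, were searched on both strands for motifs that are often found at such genes. CCGGAAG, the core letters of ETS factor sites, was in 26 of the 64 genes (40.6%) and in 9.93% of all genes. CTCGCGAG was in 7 (10.9%) against 1.04%, and AAGATGGC, letters of the YY1 site, was in 6 (9.38%) against 3.19%. TATAAA was in 7 (10.9%) against 15.7% of all genes. CTTTCC, whose letters overlap the pyrimidine tract, was in 34 (53.1%) against 29.3%. Each is a match of letters and says nothing of a bound factor.

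The libraries held 14902330 to 21230050 reads, recovered from the deposited values, and 3 reads correspond to 0.133 to 0.190 CPM. Tg, the gene of the hormone precursor thyroglobulin, took 23.8% to 29.0% of the reads of WT thyroids and 7.97% to 11.5% of K146Q thyroids. Gh, for growth hormone, took 10.8% to 20.7% in WT pituitaries and 6.77% to 8.20% in K146Q pituitaries. The defining markers of each labelled tissue were above 0 in it, which alone does not identify a tissue. In WT mice Tg was at 293439 to 357296 CPM in thyroid, 133 to 167 CPM in hypothalamus and 132 to 170 CPM in pituitary. Gh was at 97779 to 213048 CPM in WT pituitary, 83.4 to 93.4 CPM in WT hypothalamus and 99.6 to 365 CPM in WT thyroid. Thyroid libraries also held skeletal muscle markers (summed level 354 to 6721 CPM in WT and 788 to 3813 CPM in K146Q), fat markers (640.2 to 703 CPM in WT and 77.8 to 154 CPM in K146Q) and parathyroid markers (3454 to 6409 CPM in WT and 523 to 1569 CPM in K146Q), none of which was at 0 throughout.

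In the thyroid the ribosomal protein genes as a group were higher in K146Q mice. Of the 83 genes tested, 49 rose and 0 fell, against 19.7% higher and 18.1% lower among the 15200 genes tested in this tissue (limma, adjusted p under 0.05 over all genes). All 77 core genes lay above 0 in the fitted difference, with 48 of them called, and the median difference of the core genes was 0.39 on the log2 scale, where the median of all genes was -0.025. In the 2 subunits the counts were close: 29 of 50 large-subunit genes tested rose with a median of 0.39, and 20 of 33 small-subunit genes rose with a median of 0.37. In 64 genes every K146Q thyroid was above every WT thyroid, where 26.6% of all genes were.

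The size of the rise differed between the 3 K146Q thyroids. Relative to the mean of the WT libraries, the median core gene stood at 0.57 in K146Q mouse 60, 0.38 in mouse 62 and 0.19 in mouse 83 (log2). The WT thyroids stood at 0.0827 in mouse 1, -0.0997 in mouse 2 and 0.00800 in mouse 43. The groups did not overlap, but the lowest K146Q thyroid was nearer to the highest WT thyroid than to the highest K146Q thyroid. For the same mouse numbers the pituitary medians were 0.15, 0.14 and 0.11, and the hypothalamus medians 0.0283, -0.0379 and -0.0175.

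**Figure D1:**
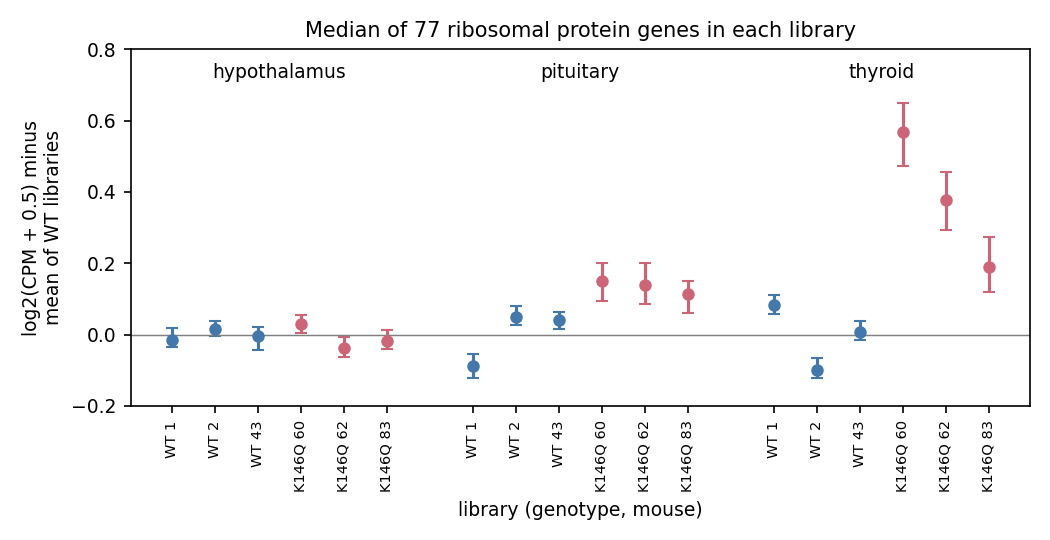
Median over the 77 core ribosomal protein genes of log2(CPM + 0.5) minus the mean of the WT libraries of the same tissue (vertical axis), for each library (horizontal axis). Points are medians and bars span the middle 50% of the genes. The K146Q thyroids sit between 0.19 and 0.57 and the hypothalamus libraries near 0.

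Rpl31, which lies at the exit of the peptide tunnel and is encoded at chr1:39367842-39371911 on GRCm38, stood at 137, 125 and 125 CPM for WT mice 1, 2 and 43, and K146Q mice 60, 62 and 83 had 241, 211 and 178 CPM. Every K146Q thyroid was above every WT thyroid, and the difference was 0.69 ± 0.12 (log2, SE, adjusted p = 0.0034). Rpl36a, which lies near the exit site for tRNA and is encoded at chrX:134585654-134588062, was at 115, 103 and 108 CPM in WT and 193, 163 and 142 CPM in K146Q thyroids, a difference of 0.60 ± 0.12 (adjusted p = 0.0068). In both genes mouse 60 was the highest and mouse 83 the lowest of the K146Q thyroids.

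Rpl34, also of the large subunit, was at 122, 96.3 and 120.1 CPM in WT and 188, 169 and 174 CPM in K146Q thyroids, a difference of 0.65 ± 0.11 (adjusted p = 0.00306). Its value depends on a pseudogene: when the row Rpl34-ps1 was added to it the difference was 0.35 (adjusted p = 0.0331). Rpl31 has a like copy, Rpl31-ps12, with up to 77.1% as many reads in the thyroid, and with it added the difference of Rpl31 was 0.65. How reads were split between such copies is uncertain.

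Among small-subunit genes Rps28 (chr17:33819027-33824562), a protein of the subunit's head, rose the most, from 135, 119.8 and 132 CPM in WT to 212, 184 and 165 CPM in K146Q thyroids, with 0.53 ± 0.11 as the difference (adjusted p = 0.007). Rps6, the ribosomal substrate of the S6 kinases, was at 476, 396 and 432 CPM in WT and at 695, 602 and 546 CPM in K146Q thyroids. The groups did not overlap and Rps6 rose by 0.49 ± 0.13 (adjusted p = 0.0186). Rps18, a head protein of the small subunit that is often used as a reference gene, rose by 0.43 ± 0.12 (adjusted p = 0.0239), from 243 ± 17.0 to 331 ± 45.8 CPM (SD, n = 3). The reference genes Rpl13a and Rpl32 rose by 0.49 and 0.49 (adjusted p = 0.0223 and 0.0178), while Rps29 at 0.31 was not called (adjusted p = 0.077).

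**Figure D2:**
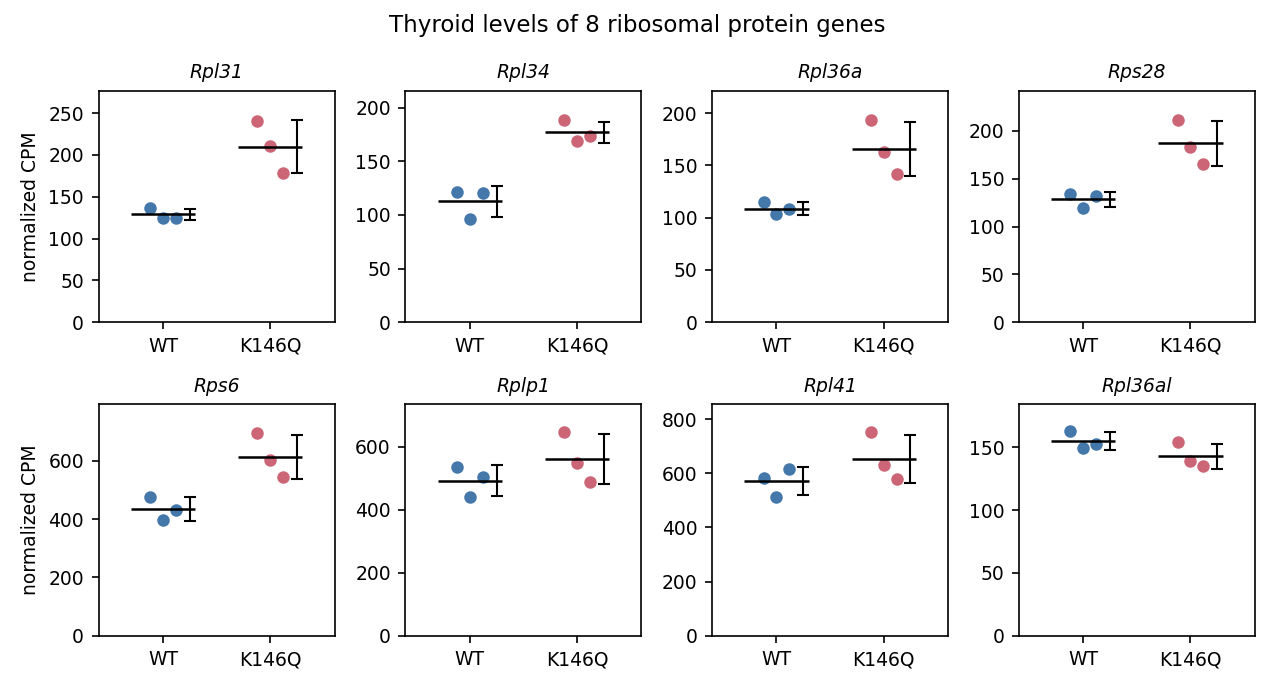
Thyroid levels in normalized CPM (vertical axes, from 0) of 8 ribosomal protein genes in WT and K146Q mice. Points are libraries, horizontal lines means and bars the SD (n = 3). Rpl31, Rpl34, Rpl36a, Rps28 and Rps6 do not overlap between genotypes, whereas Rplp1, Rpl41 and the paralog Rpl36al do.

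Genes with roles of their own were among those not called. The P-stalk, which recruits the elongation factors, is made by Rplp0, Rplp1 and Rplp2. Rplp0 was at 1318, 994 and 1259.6 CPM in WT and 1550.3, 1365 and 1285 CPM in K146Q thyroids, and Rplp1 at 534, 439 and 503 and 646, 549 and 489 CPM. Both overlapped between genotypes, with differences of 0.24 ± 0.17 and 0.19 ± 0.14 (adjusted p = 0.296 and 0.319). Rplp2 at 0.32 ± 0.12 missed the threshold (adjusted p = 0.067) although its groups did not overlap. Rpl5 and Rpl11, which form the 5S particle and can bind Mdm2, were at 0.29 ± 0.12 and 0.33 ± 0.14 (adjusted p = 0.0834 and 0.0901). Rpsa, which is also known as a laminin receptor, was at 0.25 ± 0.13 (adjusted p = 0.168), and Rps27a, made as a fusion with ubiquitin, at 0.14 ± 0.11 (adjusted p = 0.358).

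The 29 core genes not called spanned differences of 0.14 to 0.39, so they lay on the same side of 0 as the called genes but nearer to their errors, whose median was 0.12 (SE). As a share of all reads the 85 genes took 2.148, 1.939 and 2.099% in WT and 3.57, 3.01 and 2.58% in K146Q thyroids, without overlap. With the reads of Tg left out of the total the shares were 2.97, 2.73 and 2.75% and 3.88, 3.30 and 2.92%, and K146Q mouse 83 then lay below WT mouse 1. Among other genes of the same range of levels 26.7% rose and the median difference was 0.041.

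Other values moved with the genotype in the thyroid beside this result. The 5 markers of proliferating cells all rose (summed level 49.4 to 76.1 CPM in WT and 173 to 226 CPM in K146Q). Of 6 leukocyte markers, 4 were tested and 2 rose (499 to 732 CPM in WT and 1459 to 1859 CPM in K146Q). The 5 fat markers and the 3 parathyroid markers all fell, with the sums given above. Their part in the change of the ribosomal protein genes was not tested, and in bulk tissue a shift in the mix of cells and a shift in RNA per cell cannot be told apart.

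The count of called genes rested on single libraries. It was 6 without K146Q mouse 62, 15 without K146Q mouse 60 and 63 without K146Q mouse 83, and 30, 20 and 18 without WT mice 1, 2 and 43. The median of the core genes ran from 0.29 to 0.47 over these fits. Rpl31, Rpl34, Rpl36a, Rpl39, Rps16 and Rps28 were called in all 6 of them. All 77 core genes lay above 0 in each of these fits. Quantile normalization gave 17 called genes, 71 core genes above 0 and a median of 0.24, and totals recomputed without the 10 highest genes gave 24 called genes and a median of 0.29, where the median of all genes moved to -0.117. Removing GC content and length left 76 core genes above 0, with a median of 0.26.

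The pituitary showed a smaller difference of the same sign. Of the 82 genes tested, 5 rose and 0 fell, against 6.36% higher and 3.5% lower among the 15589 genes tested, so the share of called genes was near that of all genes. On the deposited scale all 77 core genes lay above 0, with a median of 0.12 (log2) where all genes had a median of -0.00875. Both depended on scaling: quantile normalization left 56 of the 77 above 0 with a median of 0.0476, removing GC content and length 65 with 0.0631, and totals without the 10 highest genes 68 with 0.0683. In 53 genes the K146Q pituitaries were all above the WT pituitaries, where 16.7% of all genes were. WT mouse 1 was the lowest library, with a median of -0.0892 against 0.0495 and 0.0407 in the other WT mice, and without it 72 core genes were above 0 and their median was 0.0805.

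Rpl39, a small basic protein of the peptide tunnel, stood at 78.8, 83.4 and 95.0 CPM for WT mice 1, 2 and 43, and K146Q mice 60, 62 and 83 had 119, 116 and 110.3 CPM. It rose by 0.43 ± 0.08 (adjusted p = 0.0119), without overlap. Rps26, which contacts mRNA at the exit channel of the small subunit, was at 146.1, 174.2 and 170.1 CPM and 218, 204 and 198 CPM and rose by 0.34 ± 0.08 (adjusted p = 0.0315). Rpl23, Rpl13a and Rpl3 rose by 0.31, 0.25 and 0.24 (adjusted p = 0.0323, 0.0454 and 0.0471). All 5 were also called higher in the thyroid, where 48 of the 77 core genes were. Rps27a, at 266, 281 and 289.7 CPM in WT and 284, 281 and 279.5 CPM in K146Q pituitaries, had the smallest difference of the core genes, 0.01 ± 0.06 (adjusted p = 0.922).

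Leaving out 1 library reduced the 5 calls to between 0 (without K146Q mouse 60 or 62) and 4 (without WT mouse 43), with 1 left without K146Q mouse 83 or WT mouse 1 and 3 without WT mouse 2, and none of the 5 genes was called in all 6 fits. Quantile normalization, totals without the 10 highest genes and a fit without trend each gave 1 call, no filter gave 3 and DESeq2 on the recovered reads 7. The 85 genes took 2.51, 2.62 and 2.40% of all reads in WT and 2.88, 2.85 and 2.82% in K146Q pituitaries. Without the reads of Gh in the total these were 2.81, 3.03 and 3.02% and 3.09, 3.10 and 3.08%. Of 7 pituitary markers tested, 2 rose and 1 fell, and some differed far more than the ribosomal protein genes. Pomc, Lhb and Pou1f1 overlapped between genotypes. Tshb, the thyrotropin subunit gene, was at 235 to 593 CPM in WT and 5600.2 to 8183 CPM in K146Q pituitaries, Cga, for the subunit it pairs with, at 3157 to 4007 CPM in WT and 16205 to 20723 CPM in K146Q pituitaries, and Prl, for prolactin, at 19074 to 30662 CPM in WT and 6929 to 8664 CPM in K146Q pituitaries. Of the leukocyte markers, 3 of the 4 tested rose (summed level 160.1 to 169.7 CPM in WT and 285 to 509 CPM in K146Q). The part of these cells in the result was not tested.

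In the hypothalamus no ribosomal protein gene passed the test. Of 82 tested, 0 were called by limma, by edgeR's quasi-likelihood test or by DESeq2, where 0% of the 15761 genes tested were called by limma. At an unadjusted p under 0.05 there was 1 (Rps15a) among the members and 4.09% among all genes. The core genes spread from -0.15 to 0.0909 (log2), with a median of -0.0051 and a median SE of 0.0437. Rps15a, a small-subunit protein, was at 127, 123 and 126 CPM in WT and 119.7, 117 and 116 CPM in K146Q hypothalami (difference -0.0924, adjusted p = 0.998). Rps21, also of the small subunit, was at 0.0909 (adjusted p = 0.998). Non-overlap was found for 1 gene upward and 4 downward, against 4.2% and 4.94% of all genes. The median SE was 0.0697 in the pituitary and 0.12 in the thyroid, so the errors were the smallest in the hypothalamus.

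**Figure D3:**
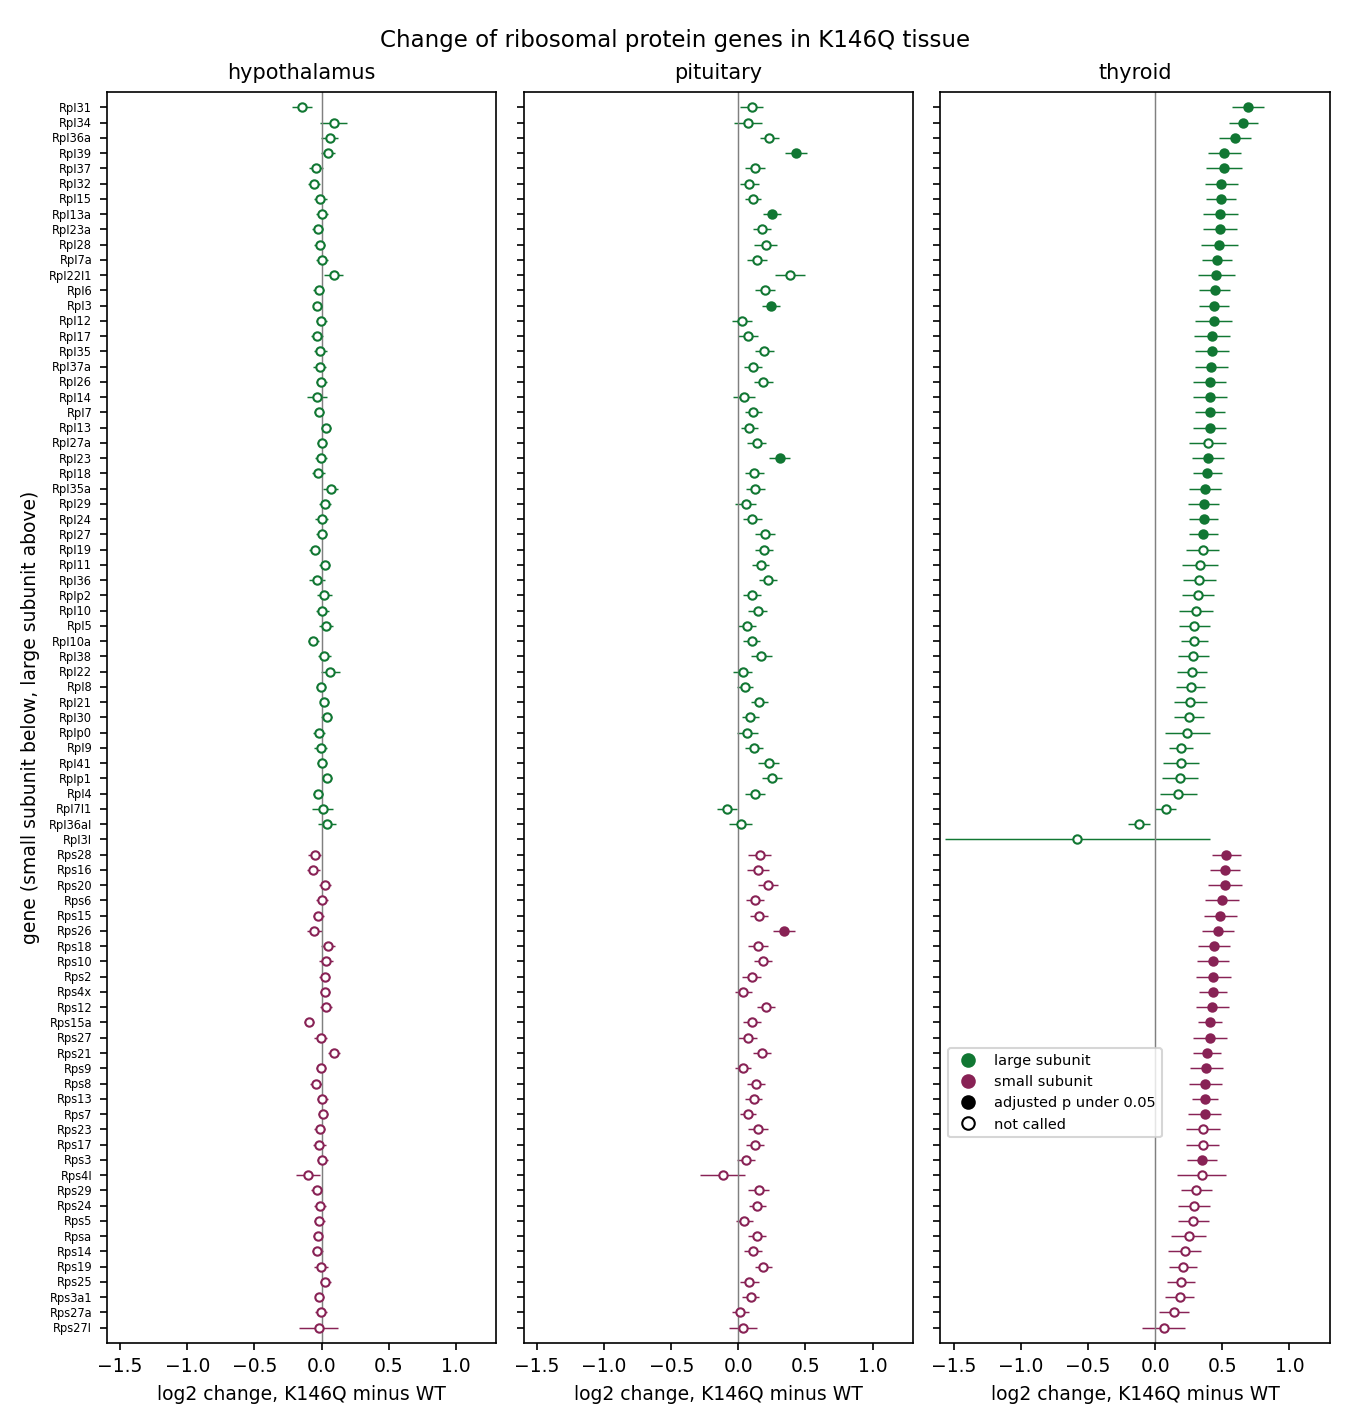
Fitted log2 difference, K146Q minus WT (horizontal axes), of genes that passed the filter on low values (vertical axis, small subunit below and large subunit above, ordered by the thyroid difference), in the 3 tissues. Bars are SE, filled points have a limma adjusted p under 0.05. The hypothalamus panel has 0 filled points and the pituitary panel 5, and in the thyroid panel the core genes all lie above 0.

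The difference between the genotype effects of thyroid and pituitary was tested directly in a fit of all 18 libraries. The fit used a shared estimate of spread, although the errors differed between the tissues. Its median SE over the core genes was 0.1172, below the 0.1196 of the thyroid effect alone. The thyroid errors are thus understated here, and the calls may be too many and their p-values too low. Of 83 genes, 23 had a larger effect in the thyroid and 0 in the pituitary, against 16.4% and 17.4% of the 17140 genes tested. The median difference of effects over the core genes was 0.24 (log2), and it was 0.14 without K146Q mouse 60. Among the called genes were Rpl31 at 0.60 ± 0.14 (adjusted p = 0.00398), Rpl34 at 0.58 ± 0.17, Rpl32 at 0.41 ± 0.12 and Rpl12 at 0.41 ± 0.13. With its pseudogene row added Rpl34 was no longer called (0.26, adjusted p = 0.0696). The count was 3 without WT mouse 2, 5 without K146Q mouse 60 or 62, 7 without WT mouse 43 and 39 without K146Q mouse 83. A fit without trend gave 15, and Rpl31 and Rps4x were among the genes called in all 6 fits that left out a mouse.

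Levels also differed between the tissues of WT mice, compared in the same fit of all 18 libraries with its shared estimate of spread. Against the WT hypothalamus, 81 of 83 genes were higher in the WT pituitary and 1 was lower, against 37% higher and 35.9% lower among all genes. The median of the core genes was 1.07 (log2). With the paralogs included it was 1.05 for the large-subunit genes tested and 1.18 for the small-subunit genes. Rpl10, which joins the large subunit last and which is X-linked, had the largest difference: it was at 187, 195 and 205 CPM in hypothalamus and 719, 788 and 772 CPM in pituitary (1.95 ± 0.07, adjusted p = 1.92e-13). Rplp0, Rpl41, Rps27l and Rps4x followed at 1.84, 1.68, 1.66 and 1.65. The lower one was Rps15a (-0.20 ± 0.06, adjusted p = 0.0106), but with its pseudogene rows added it was higher in the pituitary (0.20, adjusted p = 0.0109).

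Between WT thyroid and WT pituitary the genes went both ways. Here 28 were higher in the thyroid and 18 lower, against 37% and 38.6% of all genes, and the balance depended on scaling, since totals without the 10 highest genes gave 9 higher and 47 lower, where the median of all genes moved by more than 0.1 to -0.275. Leaving out WT mouse 1 gave 15 higher, and leaving out WT mouse 2 or 43 gave 8 or 9 lower. The core gene Rplp0 was higher in the thyroid under either scaling, on the deposited one at 1.16 ± 0.10 (adjusted p = 7.53e-09). Rpl13a, Rps6 and Rps3a1 were lower, at -0.44 ± 0.09, -0.35 ± 0.08 and -0.34 ± 0.06 (adjusted p = 0.000192, 0.000909 and 0.000169). The shared estimate of spread may understate the thyroid errors in this contrast too, so its p-values may be too low.

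Of the paralogs, 6 passed the filter in the thyroid. Rpl22l1, the copy of the RNA-binding protein Rpl22, was the only paralog called higher in the K146Q thyroid. It was called in 2 of the 6 fits that left out 1 library. Its levels were 22.2, 25.6 and 23.4 CPM in WT and 39.0, 32.9 and 27.3 CPM in K146Q thyroids, without overlap (0.46 ± 0.14, adjusted p = 0.0354), and in the pituitary the difference was 0.38 ± 0.11 (adjusted p = 0.0578). Rpl36al, the copy of Rpl36a, was at 163, 149.8 and 153 CPM in WT and 154, 139 and 136 CPM in K146Q thyroids (-0.12 ± 0.08, adjusted p = 0.287). These ranges overlapped, while those of Rpl36a itself did not. The other parent genes Rpl22, Rpl7, Rps27 and Rps4x were at 0.27, 0.41, 0.41 and 0.43 (adjusted p = 0.0894, 0.0242, 0.0384 and 0.0153). Rpl7l1, Rps27l and Rps4l were not called in the thyroid either, at 0.0791, 0.0622 and 0.35 (adjusted p = 0.462, 0.786 and 0.173).

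Set against its parent gene per kb of coding sequence, Rpl36al made up 58.8% ± 0.347 of the pair in WT thyroids and 46.4% ± 2.32 in K146Q thyroids (SD, n = 3). The annotated transcripts, with their untranslated ends, differ in length within a pair, at 1276 bases for Rpl36al and 483 for Rpl36a. A share therefore does not say which copy is the more abundant. The 3 WT thyroids lay above all K146Q thyroids, and the difference of the log2 ratio was -0.72 (p = 0.1 by an exact permutation test, two-sided, which with 3 mice a group cannot give less). In the pituitary the share was 44.6% ± 0.585 in WT and 41.0% ± 1.70 in K146Q mice, again without overlap, and in the hypothalamus 42.6% ± 1.29 and 42.3% ± 3.59. Over 15 such comparisons (5 pairs in 3 tissues) 5 reached this p, and the lowest adjusted value was 0.3. The other 3 of these 5 were Rpl7l1 in pituitary and thyroid, with a lower share in K146Q mice, and Rpl22l1 in the pituitary, with a higher one. How alike the sequences within each pair are was not measured, and the split of reads within a pair is uncertain.

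Across WT tissues the shares of Rpl22l1 and Rps27l ran in opposite ways. Rpl22l1 took 35.7% ± 1.92 of its pair in hypothalamus, 21.1% ± 2.68 in pituitary and 12.1% ± 1.65 in thyroid. Rps27l, the copy of Rps27 that p53 is known to induce, took 5.79% ± 1.23, 7.69% ± 0.0919 and 20.4% ± 2.79 in the same order. The 3 tissues did not overlap for either. In the same order the mean share was 22.7%, 14.6% and 15.1% for Rpl7l1 and 42.6%, 44.6% and 58.8% for Rpl36al. Against the WT pituitary, Rps27l and Rpl36al were higher in the WT thyroid (1.39 ± 0.14 and 0.82 ± 0.08, adjusted p = 1.31e-07 and 3.61e-08), and Rps4l and Rpl22l1 lower (-1.44 ± 0.17 and -0.71 ± 0.12, adjusted p = 9.21e-07 and 3.11e-05). These p-values come from the fit with a shared spread and may be too low. Per kb of coding sequence, Rpl36al was at 488 CPM in WT thyroids and its parent Rpl36a at 342 CPM, whereas in WT pituitaries they were at 277 and 343 CPM. Both coding sequences have 318 bases, but the transcripts have 1276 and 483, so the order of these genes within a tissue is uncertain.

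**Figure D4:**
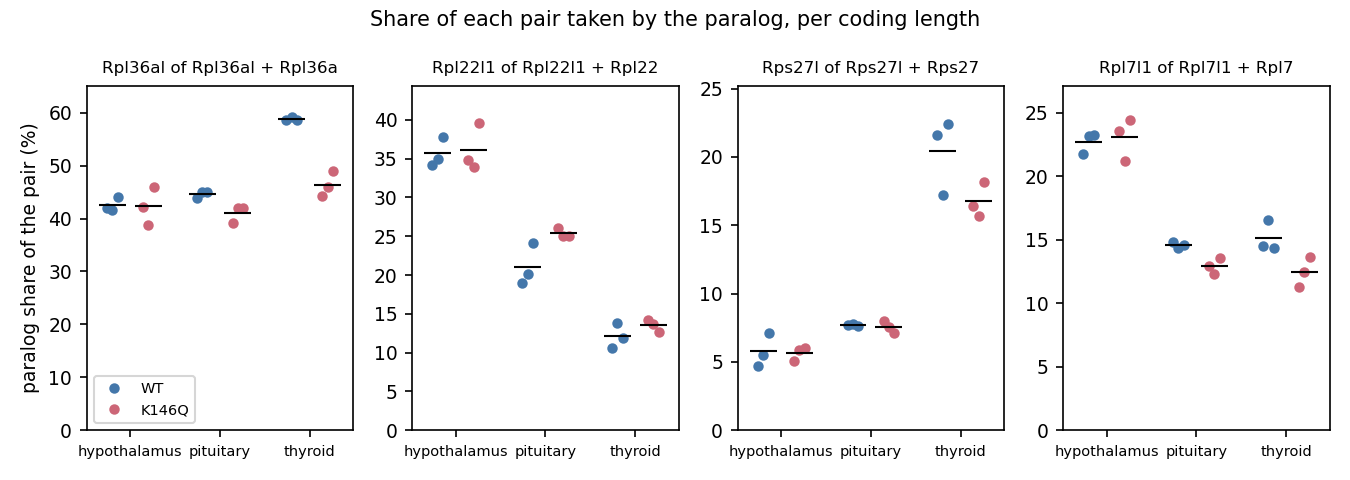
Share of each pair taken by the paralog, in percent of paralog plus parent per coding length (vertical axes, from 0), by tissue and genotype. Points are libraries and lines means (n = 3). The Rpl36al share of WT thyroids, 58.8%, stands above all other groups, and Rpl22l1 and Rps27l run in opposite directions across tissues.

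Rpl3l, the muscle form of Rpl3, varied widely within each genotype in the thyroid. It was at 1.26, 16.4 and 24.1 CPM in WT and 14.3, 3.23 and 3.46 CPM in K146Q thyroids. The summed skeletal muscle markers of the same libraries were 354, 4427 and 6721 CPM and 3813, 913 and 788 CPM, so in both genotypes the library highest in the markers was the highest in Rpl3l. The genotype difference was -0.58 ± 0.99 (adjusted p = 0.676). In hypothalamus and pituitary it stayed at or below 0.484 CPM, and it was left out there by the filter on low values. It is counted among the genes higher in WT thyroid than in WT pituitary, but it passed the filter only through the thyroid libraries, so that count says nothing of it. Rpl10l, a testis gene, had 1 read in 1 hypothalamus library and 0 in the other 17, where a count of 0 allows up to 0.133 to 0.190 CPM. Rpl39l stayed at or below 0.229 CPM, and neither passed the filter in any tissue.

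Within the family a few genes departed from the common change. For this each library was rescaled so that its median core gene was the same, a scaling chosen after the data were seen. In the pituitary Rpl39 then still stood 0.32 above WT (adjusted p = 0.0369), and in the thyroid Rpl36al stood -0.50 from WT (adjusted p = 0.0158). No other ribosomal protein gene was called in either tissue on that scale. In the difference of effects between thyroid and pituitary, Rpl31 stood above the family (0.32), and Rpl36al, Rplp1 and Rpl41 below it (-0.41, -0.34 and -0.31). None of these 6 departures was called in all 6 fits that left out a library or mouse, and each kept its sign in all 6.

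Other genes of the same machinery were taken from lists. Of 24 further translation genes with TOP mRNAs that were tested, 9 rose and 0 fell in the thyroid, against 19.7% higher and 18.1% lower among all genes, with a median of 0.33 (log2). They were the elongation factor subunits Eef1b2 (0.49) and Eef1d (0.48), the initiation factor subunits Eif3f (0.54) and Eif3k (0.42), Btf3 of the nascent chain complex (0.45), the scaffold Gnb2l1 (0.38), Fau, which encodes a small-subunit protein fused to a ubiquitin-like part (0.42), the nucleolar protein Npm1 (0.53) and Vim (1.01). Vim is an intermediate filament gene of connective tissue and no translation factor. In the pituitary 0 of the 24 were called, with a median of 0.0794, and in the hypothalamus 0.

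Of 39 ribosome biogenesis genes tested, 3 rose in the thyroid and 0 fell, below the 19.7% and 18.1% of all genes, with a median of 0.0924 (log2). These were Heatr1, which acts in pre-rRNA synthesis (1.91), the snoRNP protein Nhp2 (0.52) and the methyltransferase fibrillarin, Fbl (0.48). In the pituitary 0 of 39 were called. Of 77 mitochondrial ribosomal protein genes, which serve a different ribosome, 1 rose and 2 fell in the thyroid, also below those shares (median -0.0226) and 1 rose in the pituitary (Mrps14, 0.56).

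Of 24 regulators tested in the thyroid, 8 fell and 3 rose, where 18.1% of all genes fell and 19.7% rose, and 13 were not called. Deptor, an inhibitor of mTOR, fell by 1.27 (adjusted p = 0.000105), and the translation repressors Eif4ebp2 and Eif4ebp1 fell by 0.83 and 0.77 (adjusted p = 0.00268 and 0.00232). Genes that act on the same side as mTORC1 fell as well: Mtor by 0.33, the S6 kinase Rps6kb1 by 0.41 and the cap-binding factor Eif4e by 0.29. Those that rose were the transcription factors Mycn (1.53, adjusted p = 0.0038) and Myc (0.61, adjusted p = 0.0488) and Larp1 (0.25, adjusted p = 0.0458). In the pituitary Deptor fell by 0.84 (adjusted p = 0.000421) and no other regulator was called.

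**Figure D5:**
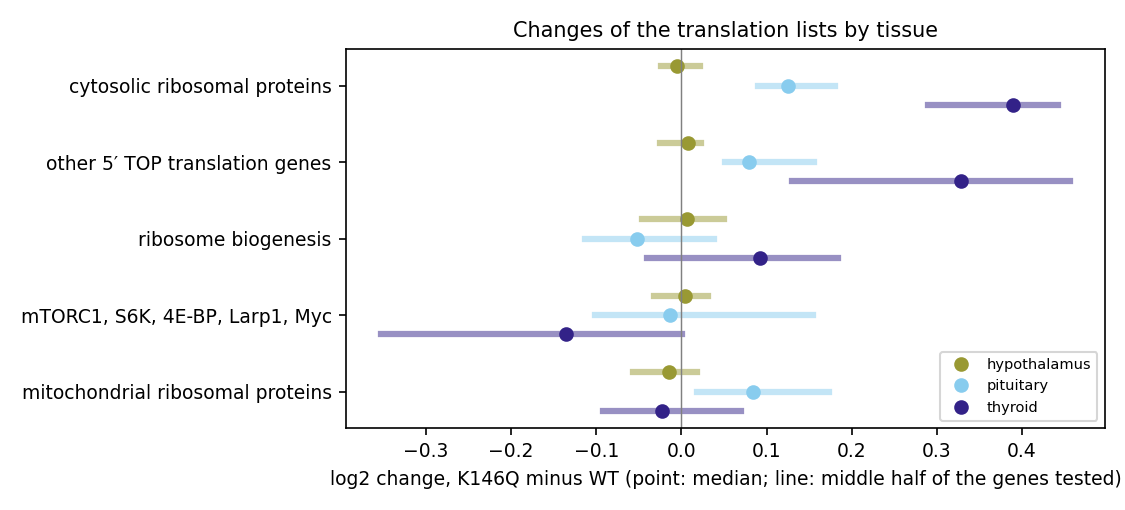
Log2 difference, K146Q minus WT (horizontal axis), over the genes tested of 5 lists (vertical axis) in the 3 tissues. Points are medians and lines span the middle 50% of the genes. In the thyroid the core ribosomal protein genes have a median of 0.39 and the mitochondrial ones -0.023.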

How the data were processed

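RNA-Seq libraries of 3 tissues from 3 WT and 3 K146Q mice were examined. The authors deposited a normalized signal per gene, a CPM scaled over all 18 libraries together. The submitters' processing notes name bcl2fastq 2.17, Bowtie2 2.1.0, RSEM 1.2.15 and mm10. The methods of the study place sequencing on an Illumina HiSeq. Columns of the authors' own comparisons (fold change, mean level, likelihood ratio and p-values) were not used. RSEM divides reads that map to several genes, which bears on paralogs and pseudogene copies. A joint scaling may leave some shift of the other genes by very abundant hormone genes. The thyroid median of the core genes was 0.39 on the deposited scale and 0.40 with median-of-ratios rescaling. With totals without the 10 highest genes it was 0.29.

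The values came out as whole reads in 100% of cases (tolerance 0.01), at a depth of 14902330 to 21230050 reads. A count of 0 allows up to 3 reads, for counting error only. On these reads edgeR 4.0.16 called 0, 1530 and 5640 genes in hypothalamus, pituitary and thyroid, and DESeq2 1.42.0 called 9, 1808 and 5760. The test in use was limma 3.58.1 with trend (R 4.3.3) on log2(CPM + 0.5), two-sided, with Benjamini-Hochberg adjustment over all genes at 0.05, fitted per tissue for genes with at least 0.5 CPM in 3 libraries. The difference of effects and the WT tissue contrasts came from 1 fit of all 18 libraries, with an estimate of spread shared by the tissues. Fold changes are on the log2(CPM + 0.5) scale. The steps were tested on simulated data.

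The members and gene lists were chosen with earlier results of these data known. Named were the paralogs and their parents, the P-stalk, Rpl5, Rpl11, Rps6, Rpsa, Rps27a, 4 common reference genes, the 5 largest called rises and falls of each comparison (with none called, the 3 lowest p), and up to 6 genes of each other list by size. Further called genes of those lists, and genes that departed from the family, were named after their values were seen. Some genes that the rule names are not reported here, and they enter the counts and medians only. The same mouse numbers recur in the 3 tissues and were read from the sample titles as the same animals, which the labels do not say in words. The correlations of their deviations ran from -0.027 to 0.174, with 3 of 18 over 0.1. Alternatives covered pseudocount, filter, scaling, trend, GC content and length, pseudogene rows, the mouse as a block, and each library left out. The 3 samples of a group carry different mouse numbers.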

Additional observations from a re-analysis of the deposited data

Results flagged for a closer look

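The genotype effect differed between thyroid and pituitary for 23 ribosomal protein genes by the test of the difference itself (limma, adjusted p under 0.05 over all genes tested), each with the larger rise in the thyroid. The values below are the thyroid effect minus the pituitary effect on the log2 scale. In the large subunit they included Rpl31 0.60, Rpl34 0.58, Rpl32 0.41, Rpl12 0.41, Rpl37 0.39, Rpl15 0.38, Rpl36a 0.37, Rpl13 0.32, Rpl7a 0.32 and Rpl7 0.29. In the small subunit they were Rps4x 0.39, Rps6 0.37, Rps28 0.37, Rps16 0.37, Rps9 0.35, Rps27 0.34, Rps2 0.33, Rps15 0.33, Rps15a 0.31, Rps7 0.30, Rps3 0.29 and Rps13 0.25. The adjusted p ran from 0.00288 (Rps4x) to 0.0478 (Rps27). The same 6 mouse numbers occur in both tissues, read here as the same animals. The shared estimate of spread understates the thyroid errors, as given above, so these p-values may be too low. Rpl34 was no longer called when the reads of its pseudogene row were added, as given above.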

How the results depend on the processing

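In the hypothalamus 0 genes were called under every alternative. Among called genes higher in the pituitary (5), no filter gave 3, and quantile normalization, totals without the 10 highest genes, no trend and scaling to the median member gave 1 each. In the thyroid (49) quantile normalization gave 17, totals without the 10 highest genes 24 and scaling to the median member 0, while GC content and length removed and scaling to the median member each gave 1 gene lower. For the difference of effects (23) no trend gave 15, and scaling to the median member gave 2 higher and 3 lower. Scaling to the median member was chosen after seeing the data and removes the common change by construction. For WT pituitary against WT hypothalamus, totals without the 10 highest genes and added pseudogene rows each gave 0 lower. For WT thyroid against WT pituitary, totals without the 10 highest genes gave 9 higher and 47 lower. The cause of the other changes was not tested.

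With 1 mouse left out, the counts ran from 0 to 4 in the pituitary, from 6 to 63 in the thyroid, from 3 to 39 higher and 0 to 1 lower for the difference of effects, from 80 to 81 higher and 0 to 1 lower for WT pituitary against WT hypothalamus, and from 15 to 32 higher and 8 to 22 lower for WT thyroid against WT pituitary. With the mouse as a replicate block the difference of effects gave 23 higher and 0 lower, WT pituitary against hypothalamus 81 and 1, and WT thyroid against pituitary 27 and 19, so the block moved no count by over 1.5 times. Within a tissue no paired analysis was possible because WT and K146Q mice share no numbers.

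A value called on either side turned its sign in 6 cases, all in WT tissue contrasts. Rps15a, pituitary against hypothalamus, became 0.087 with totals without the 10 highest genes and 0.20 with pseudogene rows added. With totals without the 10 highest genes, thyroid against pituitary, Rpl22 became -0.056, Rplp2 -0.29, Rpsa -0.23 and Rps18 -0.26. Of the other values of single genes, 151 lost the call, 33 gained it and 2659 stayed on their side of the threshold. Of these 2659, 2521 kept their sign and 138 values without a call turned it, 47 of them when scaled to the median member. How far depth limits the calls was not tested. Rps27l, with 78 to 118 reads in the hypothalamus, had an SE of 0.14 there, and Rpl10l and Rpl39l were too low to be tested.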
